A study of Arabidopsis thaliana with 12 samples.

Results

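A set of 5 nuclear genes for small or peripheral proteins of the thylakoid membrane were followed here: PSBW (AT2G30570) and PSBY (AT1G67740) of photosystem II, LHB1B2 (AT2G34420) of its light-harvesting antenna, PSAN (AT5G64040) of photosystem I and NdhS (AT4G23890) of the chloroplast NDH complex. Each has an array probe that carries 1 annotated gene, and the 5 stand among 692 such probes in a table of 3439. They were chosen with earlier results of these data known. PSB27 and NdhN, photosynthesis genes that also have such a probe, were not among them. The light group comprised 6 samples of wild-type Arabidopsis thaliana plants, ecotype Landsberg, given 500 µM bromoxynil, held in darkness for 12 h and then returned to light for 30 min. The dark group comprised 6 samples of the same ecotype at the same herbicide dose after 12 h of darkness alone. Every group thus carried bromoxynil, and herbicide-free plants were not analysed here. The labels name neither the organ sampled nor whether the 6 samples of a group came from separate plants. Unless stated otherwise, the p-values below count the 6 as independent. If some of them are repeat measurements of 1 RNA, those p-values are too small.

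In the thylakoid membrane, photosystem II extracts electrons from water and passes them through plastoquinone, the cytochrome b6f complex and plastocyanin to photosystem I, which reduces ferredoxin. The antenna proteins bind chlorophyll and feed excitation energy to the reaction centres, and the NDH complex returns electrons from ferredoxin to plastoquinone in cyclic flow around photosystem I. Bromoxynil is a nitrile herbicide that occupies the plastoquinone site of photosystem II, so in light the chain is blocked at its start. The comparison of light with dark asks how transcript levels stand shortly after illumination returns under that block.

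The deposited values are relative spot intensities without a unit, and all 5 spots were above 0 in all 12 samples. Of these, 4 were bright: PSBW, LHB1B2, PSAN and NdhS ranked between 11 and 156 of 3439 in every sample, and PSBY ranked between 620 and 1368. Spot brightness depends on the probe as well as on the transcript, so the 5 genes are not ordered by abundance. Light 1 and light 2 stood apart before any test, with median intensities of 3.88 and 3.90, against 0.559 to 0.583 in light 3 to 6 and 0.624 to 0.654 in the dark samples. Their upper range was also narrower, since the 99th percentile was 5.82 and 6.10 times the median there, against 10.8 to 15.5 times in the other 10 samples. Values were therefore quantile normalised on the log2 scale, and results are given with and without these 2 samples. On the first principal component of the normalised values (27.6% of the variance), light 1 and 2 stood at 45.5 and 47.4. Dark 1 and dark 2 lay at 10.4 and 13.3, against -18.6 to -14.3 in dark 3 to 6. Fits that drop light 1 and 2 alone thus keep dark 1 and dark 2, which also differed from the rest of their group. Sample numbers run from 1 to 6 in both groups, and neighbouring numbers are called the first pair (1 and 2), the second pair (3 and 4) and the third pair (5 and 6). Of the 5 markers of root and seed tissue, 0 had a probe of their own, so non-green tissue was not measured.

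None of the 5 genes passed the test of light against dark. The limma test over 3381 probes counted the 12 samples as independent. There 0 of 5 had a Benjamini-Hochberg adjusted p under 0.05, while 96 of all probes (2.84%) did. With pairs as a random block 16 probes passed, and with pairs averaged 1. At an unadjusted limma p under 0.05, again with 12 samples as independent, the count was 3 of 5 genes, namely PSBW, PSBY and PSAN, against 639 of all probes (18.9%). Their estimates pointed in different directions, as PSBY was higher and PSBW, PSAN and NdhS were lower in light on average, with LHB1B2 near 0. In 0 of 5 genes did the normalised values of the groups stand wholly apart, whereas all 6 light samples lay above all 6 dark samples for 2.51% of all probes and below them for 2.04%. The median log2 change of the 5 was -0.42, against 0.02 over all tested probes. Without light 1 and light 2 the changes were nearer to 0 for PSBW (-0.38), PSAN (-0.38) and NdhS (-0.11). They were 0.35 for PSBY and -0.14 for LHB1B2 there, with a median of -0.02 over all probes. In whole-tissue RNA of this kind, fewer cells that express a gene and less transcript per cell cannot be told apart.

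**Figure D1:**
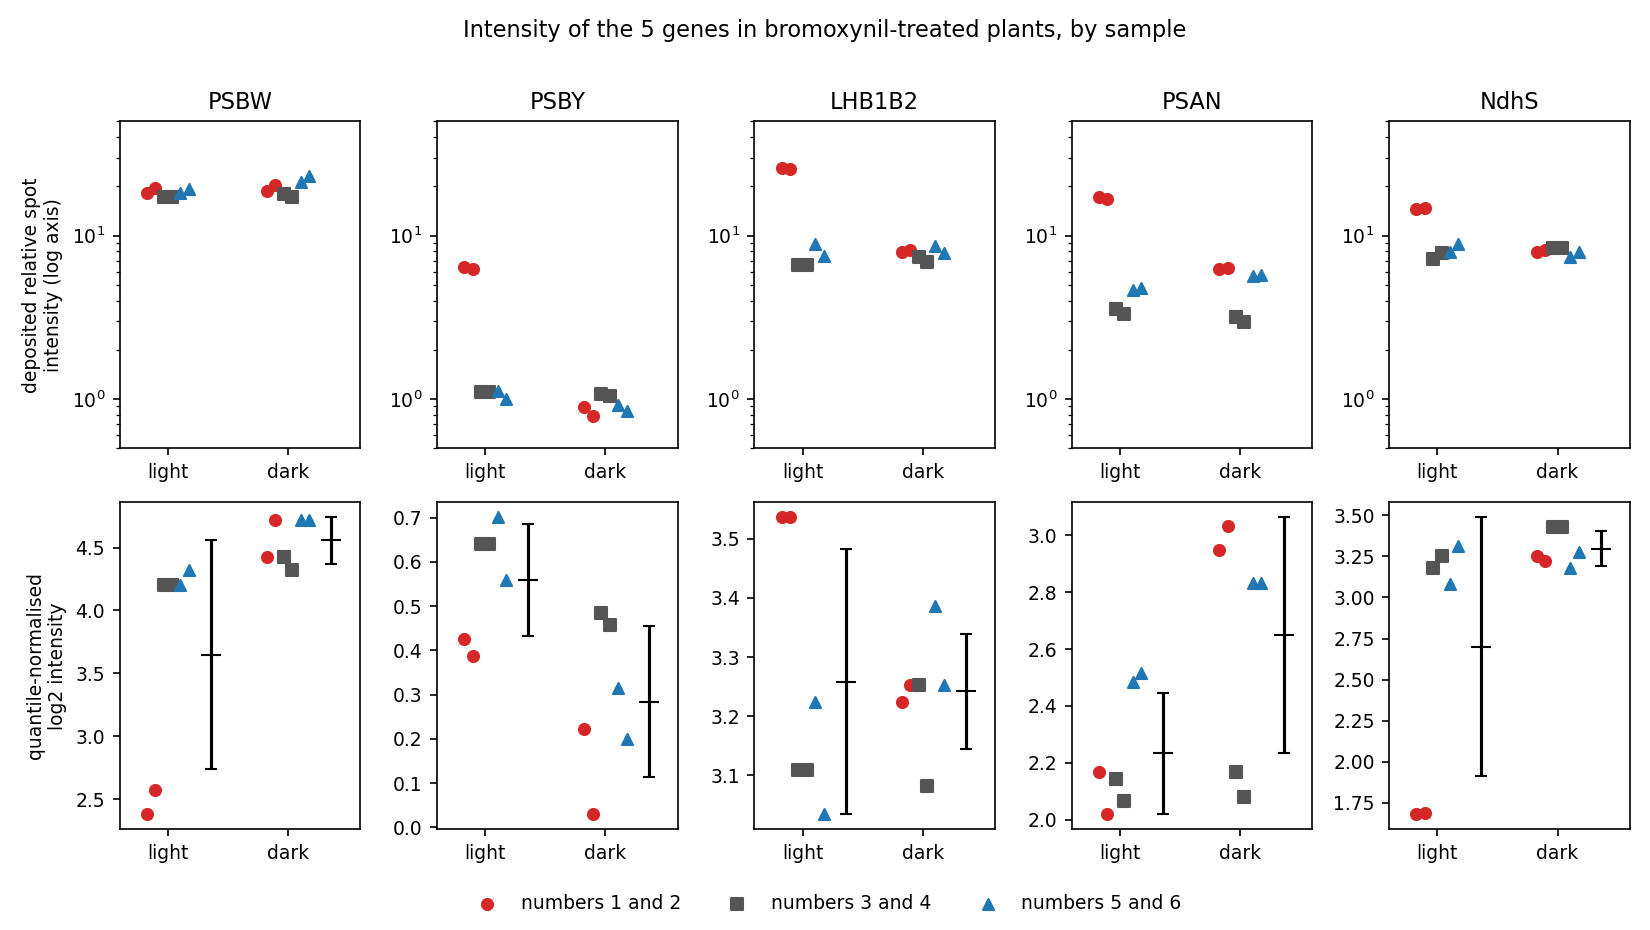
Intensity of PSBW, PSBY, LHB1B2, PSAN and NdhS in the light samples (left in each panel) and the dark samples (right), as deposited on a log axis (top) and as quantile-normalised log2 values (bottom, each panel with its own axis). Symbols mark sample numbers, and bars show the mean ± SD of 6 samples. In the deposited values light 1 and 2 lie above all other samples for PSBY, LHB1B2, PSAN and NdhS but not for PSBW, and after normalisation they are the lowest for PSBW and NdhS.

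PSBW, a low-mass photosystem II subunit that helps hold the antenna to the reaction centre, had deposited intensities of 17.3, 18.2 and 19.6 in light and 17.3, 19.7 and 23.2 in the dark (lowest, median and highest). The groups overlapped on this scale. PSBW in light 1 and 2 (18.2 and 19.6) lay within the range of the other samples, while their median spot was far brighter than elsewhere. Relative to other spots PSBW accordingly stood lower in these 2 samples, at ranks 79 and 64, against ranks 14 and 15 in light 3 to 6 and 11 to 14 in the dark. The normalised log2 intensity averaged 3.65 ± 0.91 in light and 4.56 ± 0.18 in the dark (SD, n = 6 each), a 1.88-fold lower mean in light. This log2 change of -0.91 ± 0.36 (SE) had an adjusted limma p of 0.200.

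By sample number, the PSBW difference was large in the first pair of numbers and smaller in the others. It was -2.10 in the first pair, against -0.17 in the second and -0.46 in the third. All 6 numbers had the lower value in light, a pattern shared by 10.6% of all probes. Without light 1 and light 2 the change was -0.38 ± 0.11, with an adjusted limma p of 0.114. On unscaled values, where the median change of all probes was 0.78, that of PSBW was -0.11 (adjusted limma p 0.788). In the normalised values of all 12 samples the highest light value equalled the lowest dark value, both at a log2 intensity of 4.32.

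PSBY, which the plant makes as 1 precursor that is cut into more than one small membrane peptide of photosystem II, showed the opposite sign. Its deposited intensity was 1.01, 1.12 and 6.45 in light and 0.790, 0.905 and 1.07 in the dark (lowest, median and highest), with light 1 and light 2 at 6.45 and 6.25. After normalisation the means were 0.56 ± 0.13 in light and 0.28 ± 0.17 in the dark (SD, n = 6 each). The groups overlapped: the lowest light value was 0.39 and the highest dark value 0.48.

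The log2 change of PSBY was 0.27 ± 0.10 (SE), or 1.21-fold, with an adjusted limma p of 0.155. It was the most even of the 5 across the series, with 0.28 in the first pair, 0.17 in the second and 0.37 in the third. The light value was the higher one in 6 of 6 numbers, as it was for 11.1% of all probes. Without light 1 and light 2 the change was 0.35 ± 0.10 (adjusted limma p 0.0905), with dark 1 and dark 2 kept. With numbers 1 and 2 of both groups left out it was 0.27 ± 0.08 (adjusted limma p 0.137). With pairs averaged it was 0.27 ± 0.16 (adjusted limma p 0.820). On unscaled values it was 1.09 ± 0.56 (adjusted limma p 0.426). The estimate thus had the same sign in all 3 pairs of numbers, but it missed the threshold. Of all tested probes, 62.9% had a lower change than PSBY in the first pair, against 77.1% in the second and 87.4% in the third.

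**Figure D2:**
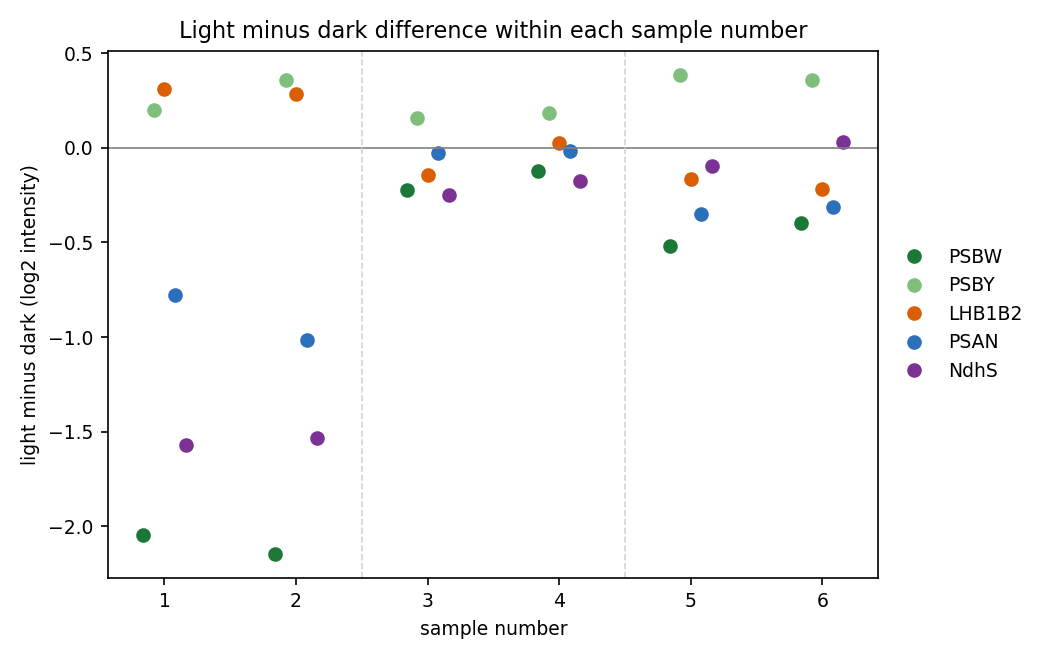
Light minus dark difference of normalised log2 intensity (vertical axis) within each sample number (horizontal axis) for the 5 genes, 1 point a gene and number. PSBW, NdhS and PSAN lie far below 0 in numbers 1 and 2 and nearer to 0 in numbers 3 to 6, PSBY is above 0 in all 6 numbers, and LHB1B2 is above 0 in numbers 1 and 2.

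The ratio of PSBY to PSBW within each array is given as a description with no test, because the pair was chosen with the opposite estimates of these samples known. On deposited values the log2 ratio averaged -3.23 ± 1.29 in light and -4.43 ± 0.31 in the dark (SD, n = 6 each). The groups overlapped, since the lowest light sample had -4.27 and the highest dark sample -4.06, but the light value was the higher one in 6 of 6 sample numbers. Without light 1 and light 2 the deposited ratio averaged -4.05 ± 0.14 in light (SD, n = 4), a difference from the dark of 0.37 in place of 1.2001. On quantile-normalised values the ratio averaged -3.09 ± 0.80 in light and -4.27 ± 0.33 in the dark (SD, n = 6 each), and there the lowest light value (-3.77) lay above the highest dark value (-3.87). The normalised difference was 1.18 with all 12 samples and 0.73 without light 1 and light 2. The size of the ratio's difference thus depended on these 2 samples on both scales.

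LHB1B2, also called LHCB1.5, encodes a chlorophyll-binding protein of the main antenna, the trimeric complex that gathers light for photosystem II. In the RefSeq annotation of assembly TAIR10.1 its neighbour is LHB1B1, another gene of the same Lhcb1 group. Proteins of this group are nearly alike, so a spot for one gene may also bind transcripts of its relatives, and the value is that of the spot rather than of 1 gene with certainty.

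The deposited LHB1B2 intensity was 6.60, 8.17 and 25.9 in light and 6.94, 7.89 and 8.67 in the dark (lowest, median and highest). The normalised log2 means were 3.26 ± 0.22 in light and 3.24 ± 0.10 in the dark (SD, n = 6 each), a change of 0.02 with a 95% confidence interval of -0.22 to 0.25. That interval holds small changes in either direction and leaves out a doubling, with quantile normalisation and with the 12 samples counted as independent. The standard error was 0.11 there and 0.17 with pairs averaged. Without scaling the change was 0.52 ± 0.47. Light 1 and 2 were the highest of the 12 samples at 3.54 each, whereas light 3 to 6 lay between 3.03 and 3.22, within or just under the dark range of 3.08 to 3.39. The sign therefore depended on those samples: without them the change was -0.14 ± 0.08 (adjusted limma p 0.383).

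PSAN, which sits on the lumenal side of photosystem I and assists the docking of plastocyanin, had deposited intensities of 3.32, 4.71 and 17.2 in light and 2.94, 5.72 and 6.35 in the dark (lowest, median and highest). Its normalised log2 means were 2.23 ± 0.21 in light and 2.65 ± 0.41 in the dark (SD, n = 6 each). The log2 change was -0.42 ± 0.18 (SE, adjusted limma p 0.247).

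The dark samples of PSAN spanned a wider range than the difference between the group means. Dark 3 and dark 4 had normalised log2 values of 2.17 and 2.08, against 2.83 to 3.03 in the other 4 dark samples, and so fell inside the light range of 2.02 to 2.52. The difference was -0.90 in the first pair of numbers, -0.02 in the second and -0.33 in the third. Light was lower in 6 of 6 numbers, as it was for 10.6% of all probes, but by only 0.02 in number 3 and 0.02 in number 4. Without light 1 and light 2 the change was -0.38 ± 0.24 (adjusted limma p 0.437), and without numbers 1 and 2 of both groups -0.20 ± 0.23 (adjusted limma p 0.689).

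NdhS, also called CRR31, is a stromal subunit that forms part of the ferredoxin-binding side of the NDH complex. Its deposited intensity was 7.22, 8.42 and 14.7 in light and 7.44, 8.04 and 8.35 in the dark (lowest, median and highest). Normalised log2 means were 2.70 ± 0.79 in light and 3.30 ± 0.11 in the dark (SD, n = 6 each), a change of -0.60 ± 0.31 (SE) with an adjusted limma p of 0.315 and a 95% confidence interval of -1.27 to 0.07.

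This average came from light 1 and light 2, where NdhS had 1.68 and 1.69 and ranks 156 and 154. Light 3 to 6 had 3.08 to 3.31, against 3.18 to 3.43 in the dark, and ranks of 32 to 39, against 29 to 36 in the dark. For NdhS the first pair of numbers differed by -1.55, the second by -0.21 and the third by -0.03. Without light 1 and light 2 the change was -0.11 ± 0.08 (adjusted limma p 0.541). On unscaled values the signs of both NdhS (0.29) and PSAN (0.44) turned, and both lay below the median of all probes.

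**Figure D3:**
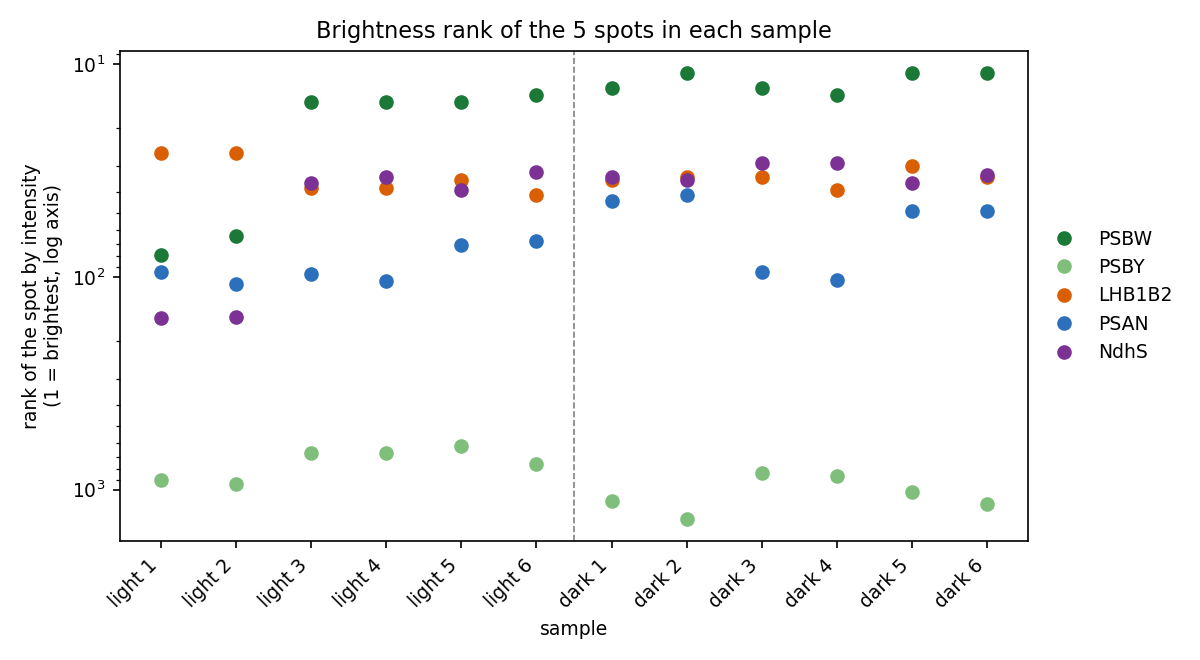
Rank of each of the 5 spots by deposited intensity among 3439 (vertical log axis, 1 is the brightest) in the 6 light samples (left) and the 6 dark samples (right). PSBW and NdhS lie at ranks 64 to 156 in light 1 and 2 and at ranks 11 to 39 in the other 10 samples, while LHB1B2 reaches its brightest rank, 26, in light 1 and 2.

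Whether the light minus dark change differed between the pairs of numbers was tested with a limma F test of the interaction. The change differed for 3 of the 5 genes, NdhS (adjusted limma p 2.57e-04), PSBW (3.25e-04) and PSAN (0.00313). This was also so for 701 of 3381 probes (20.7%), so unequal changes between the pairs were frequent on these arrays. LHB1B2 had an adjusted limma p of 0.0711 and PSBY of 0.513. The call depended on the settings for LHB1B2, which passed with median centring (adjusted limma p 0.00178) and with eBayes trend and robust (0.0270). Without scaling, where 3060 probes passed, LHB1B2 (6.63e-06) and PSBY (6.30e-07) passed and PSBW did not (0.203). With numbers 1 and 2 of both groups left out, 0 of the 5 genes passed (adjusted limma p 0.331 to 0.729), as did 5 of 3364 probes (0.149%). Samples of 1 pair resembled each other most, and whether they are repeat measurements of 1 RNA is not given in the labels. If they are, each group holds 3 independent samples, the interaction is set against technical spread alone, and its p-values are too small. What set light 1 and 2 apart was not tested.

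Among the 5 genes, the profiles of PSBW and NdhS were the most alike. The root mean square difference between their centred log2 values over the 12 samples was 0.25, against 0.29 to 0.87 for the other 9 pairs of genes. Of 632 single-gene probes, those nearest to PSBW were AT4G37420, AT5G06930 and AT3G09850, at 0.23, 0.23 and 0.24, where PSBW itself deviated from its mean by 0.75. Their changes in numbers 1 and 2 were -1.58, -2.08 and -2.15. Nearest to NdhS were Z-ISO (0.12), which encodes an isomerase of carotenoid synthesis, AT2G46910 (0.15) and again AT4G37420 (0.18). The likeness of both genes to these probes thus rested mainly on low values in light 1 and 2.

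The other 3 genes had less to match. Nearest to LHB1B2 were AT4G39760, AT4G00870 and AT5G13260, at 0.09, 0.10 and 0.10, with a deviation of LHB1B2 from its own mean of 0.16. For PSAN the nearest were AT4G20690, AT1G27610 and AT3G19810, at 0.24, 0.25 and 0.25, against its own 0.37. For PSBY they were AT5G15390, AT4G14330 and AT5G11550, at 0.15, 0.16 and 0.16, against its own 0.19, so even its nearest profiles were little closer than a flat line. Of these 3, AT5G11550 passed the test of light against dark (log2 change 0.37, adjusted limma p 0.0217).

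Few other genes of the same complexes could be read. Of 74 listed loci of the photosystems, antenna, NDH complex, electron carriers and ATP synthase, 7 had a single-gene probe, the 5 above plus PSB27 and NdhN. By list these were 3 of 14 for photosystem II, 1 of 12 for photosystem I, 1 of 20 for the antenna, 2 of 17 for NDH and 0 of 11 for carriers and ATP synthase. With limma 0 of the 7 passed in either direction, 3 having positive and 4 negative estimates. PSB27, a lumenal factor in the assembly and repair of photosystem II, averaged -0.10 ± 0.49 in light and -0.25 ± 0.77 in the dark (SD, n = 6 each, change 0.14 ± 0.35, adjusted limma p 0.861). NdhN, a subunit of the stroma-facing part of the NDH complex, averaged 0.94 ± 0.81 in light and 1.17 ± 0.74 in the dark (SD, n = 6 each, change -0.24 ± 0.42, adjusted limma p 0.802). NdhN was lower in light in 6 of 6 numbers, as were 10.6% of all probes, with changes of -0.34, -0.22 and -0.15 in the 3 pairs. With the sample number as a block its change was -0.24 ± 0.06 (adjusted limma p 0.0874). It was -0.20 without numbers 1 and 2 of both groups, and 0.28 when light 1 and 2 were dropped but dark 1 and 2 kept. The estimate of PSB27 had no stable sign, at -0.07 without dark 2.

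**Figure D4:**
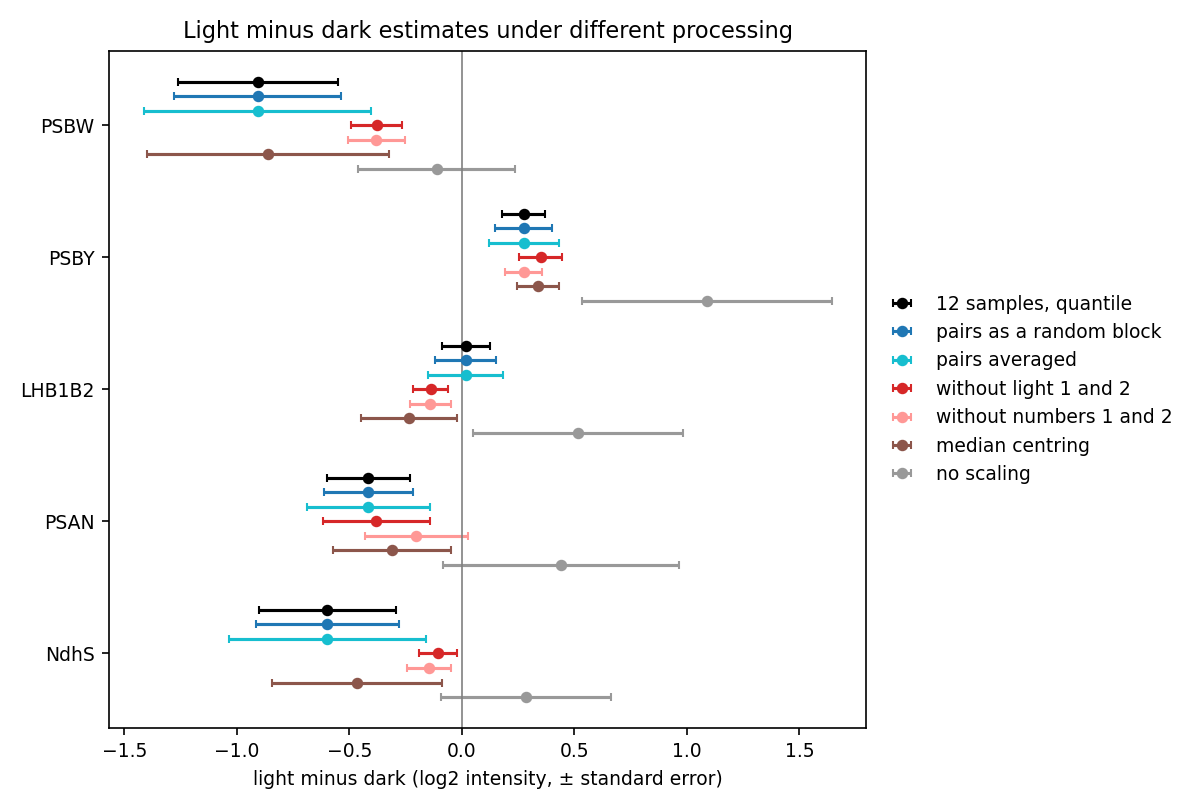
Light minus dark change in log2 intensity (horizontal axis) with its standard error for the 5 genes under 7 ways of processing. PSBY stays above 0 and PSBW below 0 throughout, PSAN and NdhS turn positive without scaling, LHB1B2 takes either sign, and PSBW and NdhS move nearer to 0 when light 1 and 2 are left out.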

How the data were processed

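The deposited values were read as spot intensities on a linear scale, since none is below 0. The brightest spot stands at 100 in 10 of 12 samples, but at 48.2 in light 1 and 47.6 in light 2. Deposited values of these 2 samples are thus not directly comparable with those of the others. The sources used here do not give the scanner, the background correction, the authors' scaling or the genome build. Samples were grouped by title. Values of 0 were set to the lowest positive value of their sample, log2 was taken, and samples were quantile normalised; 58 probes at 0 throughout were left out. Light was tested against dark with limma 3.58.1 in R 4.3.3, two-sided, over 3381 probes, without covariates (Benjamini-Hochberg threshold 0.05). The tests were first checked on simulated data with independent samples of equal spread. Such data lack the likeness within pairs seen here, so the checks do not give the error rate for these samples. Deviations from the group means correlated at 0.337 to 0.491 between light and dark samples of equal number, so the numbers pair the samples, and the number as a block was an alternative. Partners 1 and 2, 3 and 4, and 5 and 6 resembled each other most in 6 of 6 light and 6 of 6 dark samples over the 3193 probes above 0 everywhere. Probe names come from the platform annotation, of which 690 of 692 single genes matched RefSeq's TAIR10.1 table. The members, the gene lists and the PSBY to PSBW ratio were chosen with earlier results of these data known, so an exact permutation test planned for that ratio is not reported. Named genes are the members, other listed genes with a single-gene probe and, for each member, the 3 nearest profiles.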

Additional observations from a re-analysis of the deposited data

Results flagged for a closer look

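The change of NdhS differed between the pairs of sample numbers (limma interaction, adjusted p 2.57e-04), at -1.55 in the first pair, -0.21 in the second and -0.03 in the third. That of PSBW differed likewise (adjusted limma p 3.25e-04), as did that of PSAN (adjusted limma p 0.00313). In each of the 3 genes the most negative change was in numbers 1 and 2. With the sample number as a block the adjusted limma p was 0.00408 for NdhS, 0.00282 for PSBW and 0.0267 for PSAN. Without scaling PSBW no longer passed (adjusted limma p 0.203), while LHB1B2 (6.63e-06) and PSBY (6.30e-07) did. LHB1B2 also passed with median centring (0.00178) and with eBayes trend and robust (0.0270). If samples of 1 pair are repeat measurements of 1 RNA, which the labels leave unsaid, all these p-values are too small. Of 14 groups of 6 values from the 5 genes, PSB27 and NdhN, 0 had an end value far from the other 5. That check sets 1 end value against the rest, so 2 alike values can hide each other. Light 1 and 2 of NdhS, at 1.68 and 1.69 against 3.08 to 3.31 in light 3 to 6, were thus not flagged.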

How the results depend on the processing

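Each of the 5 genes was refitted under 22 alternatives, and 0 of the 5 passed the limma threshold in any of them. Direction held in 102 of 110 values, but some alternatives could not change it. The number as a block, pairs as a random block, pairs averaged, eBayes trend and robust, and the filter of dim probes left every estimate unchanged. This count is therefore not a measure of how stable the signs are. Without scaling, where the median change of all probes was 0.78, PSAN had 0.44, NdhS 0.29, NdhN 0.67 and PSBW -0.11, each below that median, and PSBY had 1.09. LHB1B2 had -0.24 with median centring, -0.14 without light 1 and 2 and -0.14 without numbers 1 and 2. Leaving out single samples gave -0.043 to 0.059 for LHB1B2, -1.04 to -0.70 for PSBW, -0.066 to 0.287 for PSB27 and 46 to 85 called probes. PSB27 had -0.049 without numbers 1 and 2, and NdhN 0.28 without light 1 and 2. The count of 96 called probes became 2 without scaling, 16 with pairs as a random block and 1 with pairs averaged. With the number as a replicate block it was 116 and PSBY came nearest of the 5 genes (adjusted limma p 0.0742). No call of the 5 changed. The lowest adjusted limma p among the 5 genes was 0.483 with pairs as a random block and 0.820 with pairs averaged. The 701 probes with unequal changes became 3060 without scaling and 5 without numbers 1 and 2, a setting added after the data were seen. The normalised PSBY to PSBW difference, read without a test, was 1.18 with pairs averaged and ran from 1.0002 to 1.3115 with single samples left out. Averaging leaves fewer degrees of freedom. The random block keeps all 12 samples, with a consensus correlation of 0.669 within pairs. Other causes of these differences were not tested. The number of arrays limits precision, and signal over background is unknown.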

Other observations

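PSBW, PSAN, LHB1B2 and NdhS were among the 100 spots that were brightest on average in dark 3 to 6. Of those 100 spots, 55 were lower in light than in the dark in numbers 1 and 2 (median log2 change -0.27), 49 in numbers 3 and 4 (median 0) and 63 in numbers 5 and 6 (median -0.09). In numbers 1 and 2, 11 of the 100 had a change below that of PSBW, 16 below that of NdhS, and 35 above that of LHB1B2. In numbers 5 and 6, where the change of PSBW was smaller (-0.46), 2 of the 100 lay below it. Dark 3 and 4 entered both the choice of these spots and the values of numbers 3 and 4, as did dark 5 and 6 for numbers 5 and 6.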
